A study of Mus musculus with 12 samples.

Results

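Mouse airway organoids collected late in culture, on day 18, 19 or 20 (d18, d19, d20), were compared with organoids collected early, on d14, d14 or d15. The culture day was read from the sample titles, which put 6 of the 12 libraries in the late group and 6 in the early group, so that every library of the series was used. Each group held 3 pairs of dishes, and a pair consisted of an ablation dish and a control dish with the same number, passage and culture day. A pair is called a culture here and is named by its number. The early cultures were 1 (d14), 4 (d14) and 5 (d15), and the late cultures were 6 (d18), 7 (d19) and 3 (d20).

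All dishes held organoids grown from primary epithelial cells of the proximal airways of wild-type C57BL/6J mice, kept in Cultrex matrix with L-WRN conditioned medium. In both groups the cells carried a lentiviral vector for a Histone2A-mCherry fusion under a p63 promoter, which is active in basal cells. Each dish held 45 organoids and was moved to unsupplemented FluoroBrite DMEM 1 h before treatment. In the 3 ablation dishes of each group, 10 neighboring cells of each organoid were destroyed with a femtosecond laser, whereas the 3 control dishes of each group received no ablation. Harvest followed 4.5 h later, and RNA of all samples was isolated in a single run. The sources used here do not give the animals behind each culture or the hour of harvest.

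Culture day was not varied on its own. By the titles, cultures 1 and 3 came from passage P2+14, cultures 4 and 5 from P2+15, and cultures 6 and 7 from P2+16. Dates read from the titles, less the culture day, gave 3 start dates, shared by cultures 1 and 3, by 4 and 5, and by 6 and 7. Cultures 3 and 1 were therefore the only late and early cultures that shared a passage and start, and their days differed by 6. Cultures 4 and 5, and cultures 6 and 7, also differed in day within a passage and start, but within the same group. In the other late and early cultures, day and passage cannot be told apart. Library numbers fell into 2 runs, taken here as library sets, with cultures 1, 3 and 5 in set 1 and cultures 4, 6 and 7 in set 2, and both groups had cultures in each set. The titles of controls 4, 6 and 7 contain the word ablation while their treatment label says control. An exchange within these pairs would move no dish between late and early.

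Airway organoids renew themselves from basal cells, which carry Krt5, Krt14 and the transcription factor Trp63 and give rise to secretory cells and multiciliated cells. As organoids age between passages, proliferation, supply of growth factors and differentiation can all shift. Of the marker sets fixed for the cell types, the basal set had the largest sum in both groups. The normalized counts of 8 basal markers summed to between 575505 and 751675 in late dishes and to between 587144 and 711786 in early dishes. The 8 secretory markers summed to between 138617 and 180143 in late dishes and between 158725 and 198751 in early dishes. Among them, the club cell gene Cyp2f2 had culture means of 28739 to 53678 late and 41546 to 72621 early. The 7 markers of hillock and squamous cells summed to between 117739 and 141033 in late and between 107064 and 147193 in early dishes. The defining club cell product Scgb1a1 was nearly absent, at 0.99 to 5.99 normalized counts in late and 0 to 9.65 in early dishes, and Foxj1, the master regulator of multiciliated cells, ranged from 2.92 to 17.8 in late and from 7.72 to 18.1 in early dishes. Neither Scgb1a1 (p = 0.3) nor Foxj1 (p = 0.2) differed in a two-sided exact permutation test over the means of 3 against 3 cultures, in which no p below 0.1 can be reached. Sftpc, a marker of alveolar cells, and Adgre1, a marker of macrophages, were listed at 0 in all 12 libraries. In bulk RNA, fewer cells of a type and less RNA per cell cannot be told apart.

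The authors divided the read counts of each library by a DESeq2 size factor, and these normalized counts were compared as log2(normalized count + 1) with limma. Of 55401 listed genes, 13792 reached 10 normalized counts in 6 or more libraries and were tested. A gene passed when its Benjamini-Hochberg adjusted p-value was under 0.05. In 9 libraries whole reads could be recovered from the values, and they summed to between 28341576 and 29775699 in 4 early libraries and between 23631212 and 28759504 in 5 late libraries. Mitochondrial transcripts made up 1.41 to 1.63% of the normalized counts in early and 1.29 to 1.79% in late dishes.

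The first question was which genes differed by culture day when the likeness of the 2 dishes of a culture is allowed for. The dishes remained the observations in this fit. Very few did. With treatment and library set as covariates and the culture as a random block, 2 of 13792 genes passed the threshold (0.0145%), both higher in late dishes. These were Galnt6, which encodes an enzyme that starts mucin-type O-glycosylation, and Arntl2, a paralog of the clock gene Arntl. An unadjusted p-value under 0.05 was reached by 1170 genes (8.48%), of which 591 were higher (4.29%) and 579 lower (4.2%), where chance alone gives 690. The median absolute log2 difference over all genes was 0.091, and the 95% interval around a gene's difference extended 0.23 to either side at the median, so that small differences were not detectable with 3 cultures in each group. When the dishes were treated as independent, without the replicate block, 24 genes passed (0.174%), 9 higher and 15 lower, including both of these. With the mean of the 2 dishes of each culture as the data, only Igfbp5 passed, at a log2 difference of -1.34, and neither Galnt6 nor Arntl2 did. In control dishes alone, 3 against 3, limma called 0 genes (0%). There the unadjusted p-value was under 0.05 for 971 genes (7.04%), and 0.689 was the lowest adjusted value.

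Galnt6 (ENSMUSG00000037280.12, chromosome 15 from 100691813 to 100729376, GRCm38.p6) had normalized counts of 5334, 5093 and 4907 in the late cultures 3, 6 and 7 and of 3732, 3686 and 3491 in the early cultures 1, 4 and 5, each the mean of 2 dishes. The 6 late dishes lay between 4410 and 5795 with a median of 5116, all above the 6 early dishes, which lay between 3374 and 4085 with a median of 3491. The log2 difference was 0.50 (95% interval 0.35 to 0.65, adjusted p = 0.0399 from limma). It was 0.54 in controls and 0.45 in ablation dishes.

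Arntl2 (ENSMUSG00000040187.15, chromosome 6 from 146796055 to 146833529) was at 1222, 1131 and 1190 normalized counts in cultures 3, 6 and 7 and at 846, 895 and 840 in cultures 1, 4 and 5. The median was 1190 in late dishes, which lay between 1130 and 1242, and 859 in early dishes, which lay between 825 and 915, so the groups did not overlap. Its log2 difference was 0.45 (95% interval 0.32 to 0.59, adjusted p = 0.0399), with nearly the same value in controls (0.45) and ablation dishes (0.46). Within library set 1 the log2 differences of Galnt6 and Arntl2 were 0.56 and 0.53 (both adjusted p = 0.414), and within set 2 they were 0.44 (adjusted p = 0.0587) and 0.37 (adjusted p = 0.0964). Without culture 3, Galnt6 and Arntl2 kept log2 differences of 0.44 and 0.37, and both adjusted p-values were 0.999 in that fit. Neither passed without culture 4, 6 or 7, with adjusted p-values from 0.0823 to 0.240, and Arntl2 did not pass without culture 5 (0.144). With the means of the 2 dishes of each culture as the data, their adjusted p-values were 0.509 and 0.740.

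For 127 genes the 6 late and the 6 early dishes did not overlap, with 58 higher (0.421%) and 69 lower (0.5%) in late dishes. Those named next did not pass the threshold and were chosen after their values were seen. Enpp1, an ectoenzyme that generates pyrophosphate, lay between 624 and 802 normalized counts in late dishes with a median of 741, and between 366 and 581 in early dishes with a median of 466.1. Its log2 difference was 0.58 ± 0.09 (SE, adjusted p = 0.103). Late dishes held between 3770 and 4558 counts of Wnt4, which encodes a Wnt ligand, with a median of 4121.6, while early dishes held between 4996 and 6381 with a median of 5369. The Wnt4 difference was -0.42 ± 0.09 (adjusted p = 0.224). Counts of Ces1a, a carboxylesterase gene, ran from 78.3 to 125 late (median 105) and from 143 to 211 early (median 191), with a difference of -0.84 ± 0.16 (adjusted p = 0.222). Sult1d1, a sulfotransferase gene, showed the widest separation of the genes named here. It was at 7.16 to 54.5 counts in late dishes (median 27.3) and at 58.4 to 177 in early dishes (median 83.3), a log2 difference of -2.07 ± 0.45 (adjusted p = 0.294). Leaving out culture 1 raised the number of calls to 13 (0.0943%), and Enpp1 (adjusted p = 0.0278), Wnt4 (0.0464) and Ces1a (0.0464) were among them. Leaving out culture 3, 6 or 7 gave 0 calls. Without culture 4 there were 4 calls and without culture 5 there was 1, and Enpp1, Wnt4 and Ces1a were not among these.

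**Figure D1:**
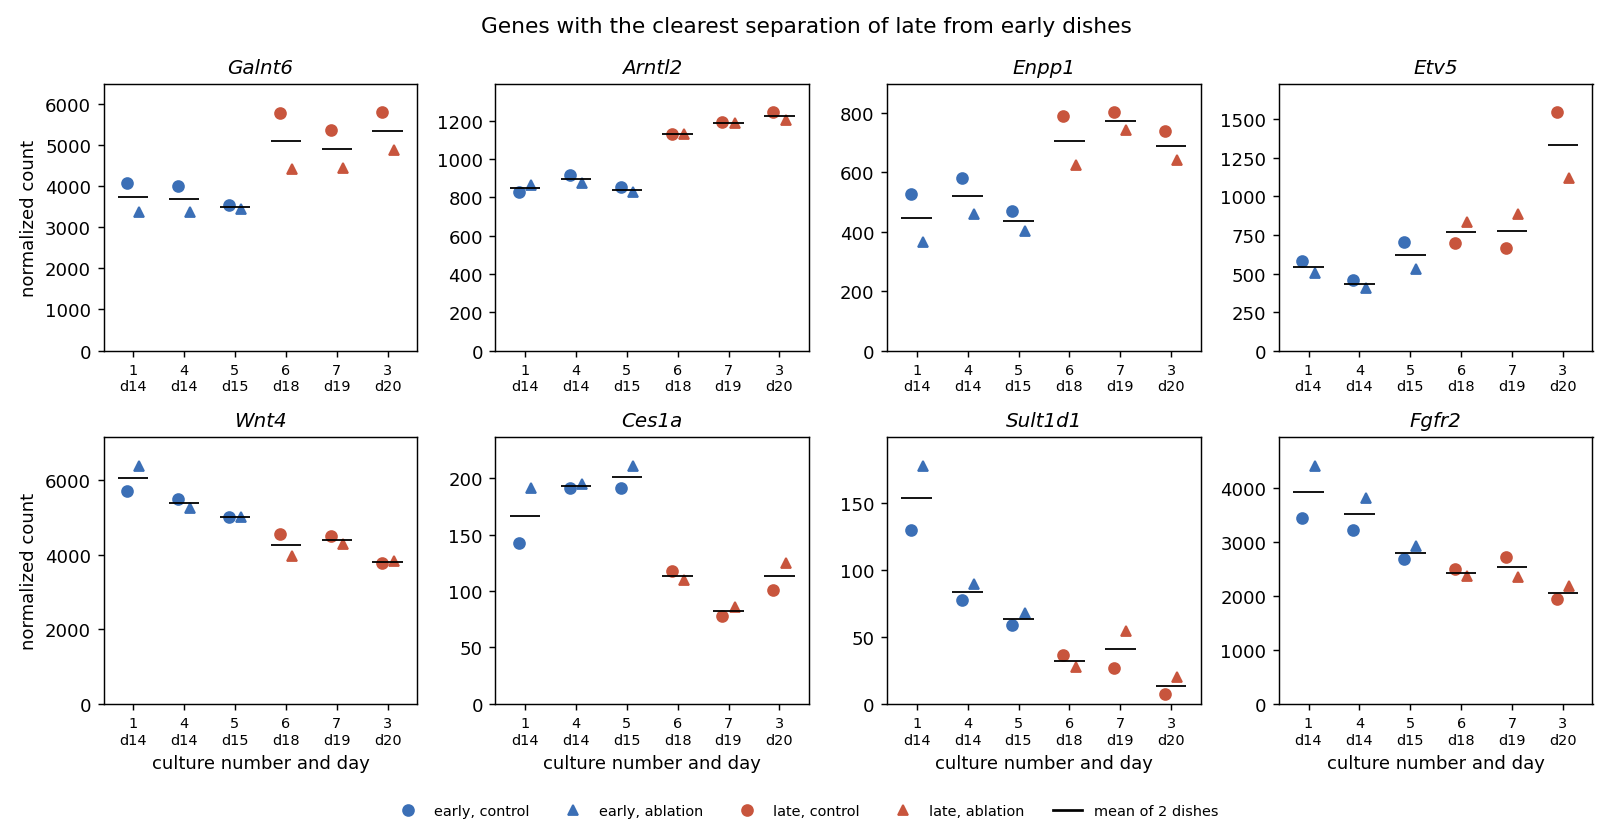
Normalized counts (vertical axes, from 0) of 8 genes in each dish, by culture number and day in order of day (horizontal axes). Circles are control dishes and triangles ablation dishes, early in blue and late in red, and the black line is the mean of the 2 dishes. Galnt6, Arntl2, Enpp1, Wnt4, Ces1a and Sult1d1 have no late dish within the early range, whereas Etv5 and Fgfr2 overlap.

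Receptor tyrosine kinase signaling through FGFR2 and ERK induces Etv4 and Etv5, transcription factors whose levels are commonly read as a gauge of that pathway. Etv5 ranged from 666 to 1545 normalized counts in late dishes with a median of 861, and from 409 to 707 in early dishes with a median of 517. Culture 3 was highest, at 1333, and the groups overlapped. The log2 difference was 1.01 ± 0.17 (adjusted p = 0.2), and that of Etv4 was 0.64 ± 0.13 (adjusted p = 0.224). The receptor gene Fgfr2 had the opposite sign at -0.59 ± 0.13 (adjusted p = 0.344), from 1946 to 2712 counts in late and from 2674 to 4409 in early dishes. Of the 25 tested genes of the ERK and immediate early list, 4 had an unadjusted p-value under 0.05 with a higher level late (Etv5, Etv4, Dusp6 and Spred1) and 2 with a lower level (Jun and Fosl2).

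None of the 631 tested entries of 35 gene lists passed the threshold in the late against early comparison. By unadjusted p-values under 0.05, against 4.29% of all genes higher and 4.2% lower, the lists with the most members on a single side were those of NRF2 targets, squamous differentiation, clock, cholesterol synthesis and ATF4 targets. In the NRF2 list, which holds glutathione and pentose phosphate genes, 8 of 23 genes were lower and 0 higher, among them Pgd at -0.30 and G6pdx at -0.17, with a median of -0.13 for the list. In the hillock and squamous list 6 of 31 were lower, including Krtdap at -1.01 and Sprr3 at -0.49, and 0 were higher (median -0.14). In the cholesterol list 5 of 24 genes were higher and 0 lower (median 0.13), and in the ATF4 list, which holds amino acid synthesis and transport genes, again 5 of 24 higher and 0 lower (median 0.12). The leans of the cholesterol and ATF4 lists were not shared by all late cultures. The median deviation of the cholesterol list from the mean of all dishes was 0.22 in culture 3, -0.08 in culture 6 and 0.001 in culture 7. That of the ATF4 list was 0.17, -0.02 and -0.03. Early culture 1 was lowest for the ATF4 list, at -0.13. In controls alone the ATF4 list had 1 gene higher and 1 lower (median 0.02), and without culture 1 it had 4 higher and 1 lower (median 0.04). The median over all 13792 genes was 0.003. These log2 differences are small, and the lists were chosen with earlier results of these data known.

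Lineage genes showed no detectable difference between late and early dishes. Trp63 had 8893 ± 861 normalized counts in late and 8455 ± 1085 in early cultures (SD, n = 3 cultures), a log2 difference of 0.15 with a 95% interval from -0.04 to 0.35 (adjusted p = 0.699). Krt5 was at 270704 ± 45656 late and 283013 ± 37256 early, with a difference of 0.03 (interval -0.15 to 0.22, adjusted p = 0.958). Krt8, a keratin of luminal cells, differed by -0.07 (interval -0.29 to 0.14, adjusted p = 0.907) and Sox2, a transcription factor of the proximal airway, by 0.12 (interval -0.08 to 0.31, adjusted p = 0.799). The early and late dishes overlapped for each of these 4 genes.

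The response to ablation was also compared between the groups, as the difference between the ablation and the control dish of each culture. In this test limma called 0 of 13792 genes (0%). An unadjusted p-value under 0.05 was reached by 680 genes (4.93%), fewer than the 690 that chance gives, and the lowest adjusted p-value was 0.157. With 3 differences in each group, responses that differed modestly by culture day would not have been detected.

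Cultures of the same group differed from each other about as widely as late cultures differed from early ones. Every pair of cultures was compared in a fit with culture and treatment as factors, where the spread is that between dishes and each culture day is represented by a single culture. A p-value from this fit describes these cultures and cannot be carried over to a culture day. The 6 pairs within a group gave between 2 and 2299 genes, and the 9 pairs of a late with an early culture between 40 and 2911. The median absolute log2 difference over all genes was 0.097 to 0.18 within a group and 0.10 to 0.19 between groups. Among cultures 4, 5, 6 and 7, between 2 and 512 genes passed the threshold for a pair. Pairs with culture 1 or 3 gave between 1057 and 2911 genes. Within the early group, 1720 genes differed between cultures 4 and 1 and 2018 between 5 and 1, against 2 between 5 and 4. Within the late group, 2243 genes differed between cultures 6 and 3 and 2299 between 7 and 3, against 254 between 7 and 6. Both cultures that stood apart came from passage P2+14 and the same start, and they also differed most from each other.

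**Figure D2:**
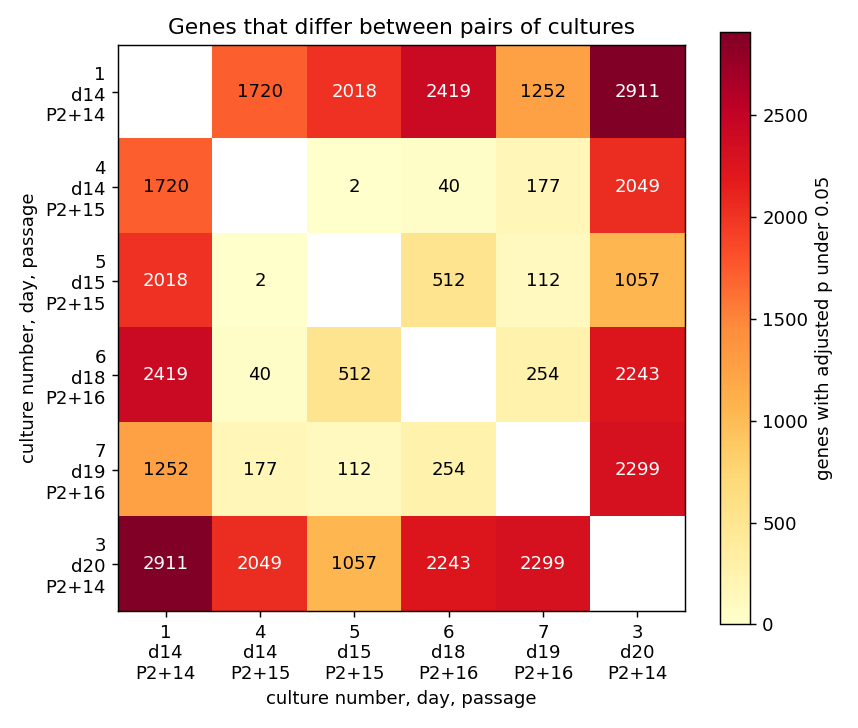
Number of genes with an adjusted p-value under 0.05 (limma, 13792 genes tested) for each pair of cultures, ordered by culture day, with the passage under each number. The rows and columns of cultures 1 and 3 hold the high counts, from 1057 to 2911, and pairs among cultures 4 to 7 reach at most 512.

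The comparison of culture 3 (d20) with culture 1 (d14) is the only contrast of a late with an early culture within a passage and start. Here 2911 genes differed (21.1%), 1589 higher (11.5%) and 1322 lower (9.59%) on d20. Their median absolute log2 difference was 0.42, and 199 of them changed more than 2-fold, 74 higher and 125 lower. The count leaned on the ablation dish of culture 1: without it, 615 genes passed (4.46%). It was 1458 without the control dish of culture 3 (10.6%), 1612 without its ablation dish (11.7%) and 2603 without the control dish of culture 1 (18.9%).

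Cell division genes were low in culture 1. Of 26 tested genes of the G2 and mitosis list, 25 rose from culture 1 to culture 3 and 0 fell, with a median log2 difference of 0.61. Of 29 S phase genes, which serve DNA replication, 24 rose and 0 fell (median 0.57). Over all genes, 11.5% were higher and 9.59% lower. Without any one of the 4 dishes, 20 to 25 of the mitosis genes and 11 to 28 of the S phase genes passed, with the lowest S phase count without the ablation dish of culture 1. In those fits 4.46% to 18.9% of all genes were called. The mitotic kinase gene Aurka had 1638 normalized counts in culture 1 and 3141 in culture 3, while cultures 4, 5, 6 and 7 had 2877, 2946, 2703 and 2178. Its log2 difference was 0.94 ± 0.10 (SE, adjusted p = 0.000221 from limma). Top2a, the topoisomerase that untangles chromosomes, rose from 12833 to 22430 counts (0.81 ± 0.08, adjusted p = 0.000152), with 21430, 19093, 23101 and 15006 in cultures 4, 5, 6 and 7. Thus culture 1 lay lowest for both genes, and culture 7 (d19), another late culture, lay next.

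Measured over the whole list, the median log2 deviation of the mitosis genes from the mean of all dishes was -0.45 in culture 1, 0.17 in culture 3, 0.19 in culture 4, 0.10 in culture 5, 0.23 in culture 6 and -0.24 in culture 7. Compared with culture 7, 17 of 26 mitosis genes were higher in culture 4, where 1.28% of all genes differed, and 18 in culture 6, where 1.84% did. The S phase list differed in order, with culture 3 highest at 0.32 and cultures 1 and 7 lowest at -0.25 and -0.21. Uhrf1, which keeps DNA methylation during replication, was at 3273 counts in culture 3 against 1819 in culture 1, 1832 in culture 7 and 2130 to 2446 in the others. The differences of the late cultures therefore ran in both directions, and over all late against early dishes the list medians were 0.18 for S phase and 0.06 for mitosis, with 0 genes called in either.

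Promoters of mitosis genes often hold the cell cycle homology region, a binding site of the DREAM complex. The letters TTTGAA were searched on both strands in the 250 bases before the first RefSeq start of each gene, for which 9978 of the 13792 tested genes had a promoter in the GRCm38.p6 table. They occurred in 7 of 21 mitosis genes (33.3%) and in 10.9% of all these promoters, and CCAAT occurred in 18 of the 21 and in 36.8% of all. That of Top2a is shown because the gene stands for the list. It lies at chr11:99024190-99024289 on the minus strand and covers the last 100 bases before the start, with TTTGAA on either strand in capitals. A match describes the sequence and does not show that a factor bound it.
Top2a: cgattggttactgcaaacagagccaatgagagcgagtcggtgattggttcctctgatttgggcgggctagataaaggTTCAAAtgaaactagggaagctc

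**Figure D3:**
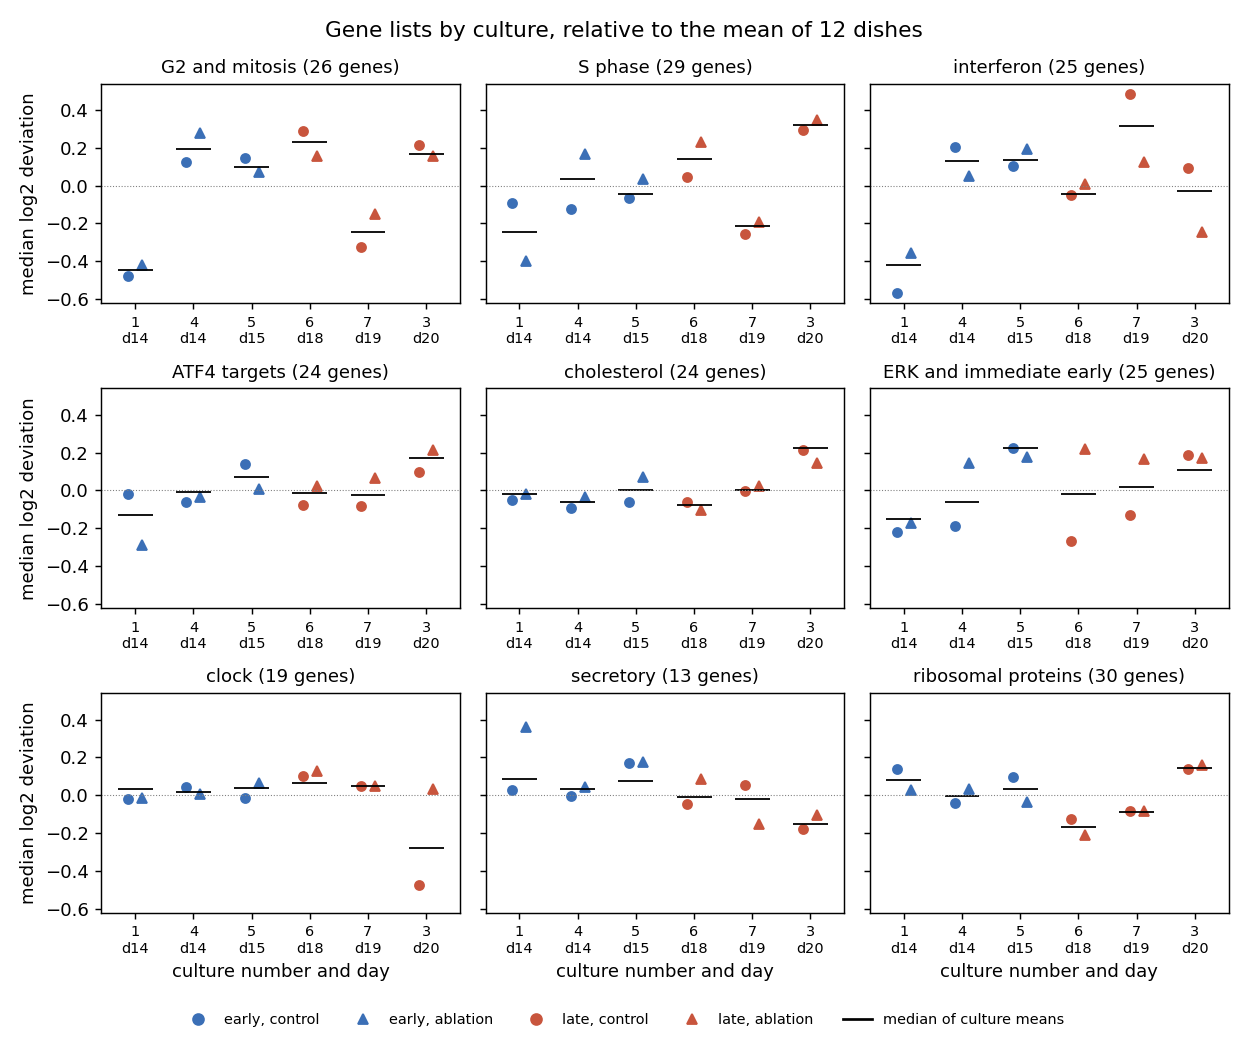
Median log2 deviation from the mean of the 12 dishes over the tested genes of 9 lists (vertical axis), for each dish, by culture number and day (horizontal axis). Circles are control and triangles ablation dishes, early in blue and late in red, and the black line is the median over the culture's mean values. Culture 1 is low for mitosis and interferon genes, culture 3 is high for S phase and cholesterol genes, and late cultures lie on both sides of 0 for mitosis genes.

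Interferon-induced genes, which make up the antiviral defense of epithelia, were likewise low in culture 1. Of 25 tested, 7 rose from culture 1 to culture 3 and 1 fell (median 0.32), against 11.5% higher and 9.59% lower over all genes. The 7 became 4 without the control dish of culture 1 and 4 without that of culture 3. Ifi44 was at 56.3 normalized counts in culture 1 and at 215 in culture 3, and the remaining cultures lay between 192 and 249. Its log2 difference was 1.92 ± 0.21 (adjusted p = 0.000221). Bst2, an antiviral membrane protein, had 186 counts in culture 1 and 374 in culture 3 (1.01 ± 0.13, adjusted p = 0.000412), and Isg15, a ubiquitin-like modifier, 143 and 318 (1.13 ± 0.24, adjusted p = 0.00767). The gene that fell was Irf1, a transcription factor of the interferon gamma response, by 0.64 on the log2 scale. For Ifi44, Bst2 and Isg15, culture 1 was the lowest of the 6. Culture 1 was also below cultures 4, 5, 6 and 7, with 13, 10, 7 and 13 of the 25 genes higher in these and 0 lower. Over all genes, 12.5%, 14.6%, 17.5% and 9.08% differed in these pairs. Leukocyte markers, 3 in all, summed to between 119 and 173 in late and between 102 and 151 in early dishes. Their part in these values was not tested.

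Interferon-stimulated response elements hold repeats of GAAA. The letters GAAA followed after 2 bases by a further GAAA were found on either strand before the start of 11 of 21 genes of the list (52.4%), against 2.58% of all promoters. The promoters of the called genes Isg15 and Bst2 are shown with these letters in capitals, where overlapping matches run together. They lie at chr4:156200830-156200929 and chr8:71537542-71537641, both on the minus strand.
Isg15: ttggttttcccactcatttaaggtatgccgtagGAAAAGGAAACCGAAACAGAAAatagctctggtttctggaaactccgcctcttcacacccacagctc
Bst2: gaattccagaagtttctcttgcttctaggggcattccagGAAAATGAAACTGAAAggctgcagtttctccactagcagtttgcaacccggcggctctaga

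Genes of amino acid and sterol supply were higher in culture 3. Of 24 ATF4 targets, 13 rose from culture 1 to 3 and 0 fell (median 0.35), and of 24 cholesterol synthesis genes 10 rose and 0 fell (median 0.28). Over all genes, 11.5% were higher and 9.59% lower. Culture 1 was also low for the ATF4 list, with 8 genes higher in culture 4 and 10 in culture 5, and 2 lower in each. In these pairs 12.5% and 14.6% of all genes differed. Cth, which makes cysteine from cystathionine, was at 2760 counts in culture 1, 4293 in culture 3 and 2400 to 2995 in the others (0.66 ± 0.10, adjusted p = 0.00108). Idi1, an enzyme of isoprenoid synthesis, was at 790 in culture 1, 1113 in culture 3 and 872 to 1018 in the others (0.49 ± 0.07, adjusted p = 0.000914). Culture 3 was highest for both. Without the ablation dish of culture 1 the ATF4 and cholesterol genes that rose from culture 1 to 3 numbered 4 and 2. Without the control dish of culture 3 they numbered 8 and 6. Over all genes, 4.46% and 10.6% were called in these fits. Of the ERK and immediate early list, 8 of 25 rose and 1 fell (median 0.57). Fosl1, an AP-1 subunit, showed the steepest rise of the list, from 93.1 to 389 counts (2.05 ± 0.51, adjusted p = 0.0314), but early culture 5 reached 343, and 2 of the 25 genes passed without the ablation dish of culture 1 and 3 without the control dish of culture 3.

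Several secretory and detoxification genes fell from culture 1 to culture 3. Of 13 tested secretory genes 5 fell and 1 rose (median -0.30), and of 23 NRF2 targets 7 fell and 2 rose (median -0.14), against 9.59% lower and 11.5% higher over all genes. Without the ablation dish of culture 1 the falls numbered 3 for the secretory and 1 for the NRF2 list. The NRF2 falls were 3 without the control dish of culture 1 and 2 without the ablation dish of culture 3, and limma with its plain empirical Bayes step and edgeR on 9 libraries gave 1 each. Cyp2f2, a cytochrome P450 of club cells, was at 72621 counts in culture 1, 28739 in culture 3 and 41546 to 53678 in the others, a log2 difference of -1.34 ± 0.18 (adjusted p = 0.00244). Cbr2, a carbonyl reductase of the airway, fell from 87978 to 50121 (-0.81 ± 0.14, adjusted p = 0.00283), with 48837 to 73425 in the other cultures. Gstm1, a glutathione transferase gene of a family with near-identical members, fell from 24943 to 12657 (-0.99 ± 0.13, adjusted p = 0.00112). For these 3 genes culture 1 was highest, and for Cbr2 culture 5 lay below culture 3. Sult1d1 had the largest difference of the genes named here, from 153 to 13.6 counts (-3.54 ± 0.35, adjusted p = 0.000152). Among basal genes 4 of 16 fell and 1 rose, where 9.59% of all genes were lower, and the falls became 1 without the ablation dish of culture 1 and 2 without the ablation dish of culture 3. Ngfr, a surface marker of basal cells, fell from 3562 to 2095 counts (-0.76 ± 0.17, adjusted p = 0.0126), whereas Trp63 differed by 0.05 (adjusted p = 0.753) and Krt5 by -0.02 (adjusted p = 0.899). The 30 ribosomal protein genes had 0 calls at this dish-level spread, with a median of 0.07.

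Clock genes changed in culture 3 in opposite groups. In the circadian clock, Arntl and its partner Clock drive Per, Cry, Nr1d and the D-box binding factors Dbp, Tef and Hlf, and the Nr1d repressors hold Arntl down in turn, so that the levels of Arntl and Dbp peak at different times of day. Of 19 tested clock genes, 6 fell from culture 1 to culture 3 (Dbp, Tef, Per3, Nr1d1, Nr1d2 and Hlf) and 3 rose (Arntl, Cry1 and Ciart). Over all genes, 9.59% were lower and 11.5% higher. Dbp was at 472 counts in culture 3 and between 1125 and 1406 in the 5 others, with a difference from culture 1 of -1.57 ± 0.12 (adjusted p = 3.46e-05). Nr1d1 was at 950 in culture 3 and between 1473 and 2136 in the others (-0.63 ± 0.07, adjusted p = 0.000324), and Nr1d2 at 3499 and between 5015 and 6101 (-0.52 ± 0.06, adjusted p = 0.000324). Arntl, at 1395 in culture 3 and 991 to 1183 in the others, rose (0.50 ± 0.11, adjusted p = 0.0063), as did Cry1, at 1219 and 605 to 818 (0.58 ± 0.10, adjusted p = 0.00235). Culture 3 was thus at one end for each of these 5 genes, in both of its dishes. Without any one of the 4 dishes, 5 or 6 of the clock genes still fell and 1 to 4 rose, where 4.46% to 18.9% of all genes were called. The hour of harvest was not tested, since it was not given in the sources used here.

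In late against early dishes none of the 19 clock genes passed. Hlf, a D-box binding factor, was at 1338, 1555 and 1449 counts in the late cultures 3, 6 and 7 and at 1760, 1935 and 1728 in the early cultures 1, 4 and 5 (-0.38 ± 0.07, adjusted p = 0.222). By unadjusted p-values under 0.05, 5 clock genes were lower (Hlf, Nr1d2, Dbp, Nr1d1 and Tef) and 3 higher (Cry1, Arntl and Npas2). With the passage number added as a covariate, 7 genes passed, of which Nr1d1 (-0.61, adjusted p = 0.00944), Nr1d2 (-0.40, adjusted p = 0.0495) and Cry1 (0.61, adjusted p = 0.0495) are clock genes. The other 4 were Galnt6, Arntl2, Etv4 and Pmp22. Culture 3 was the only late culture not of the highest passage, so with this covariate the difference leans most on culture 3. That culture stood at one end for Nr1d1, Nr1d2 and Cry1.

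**Figure D4:**
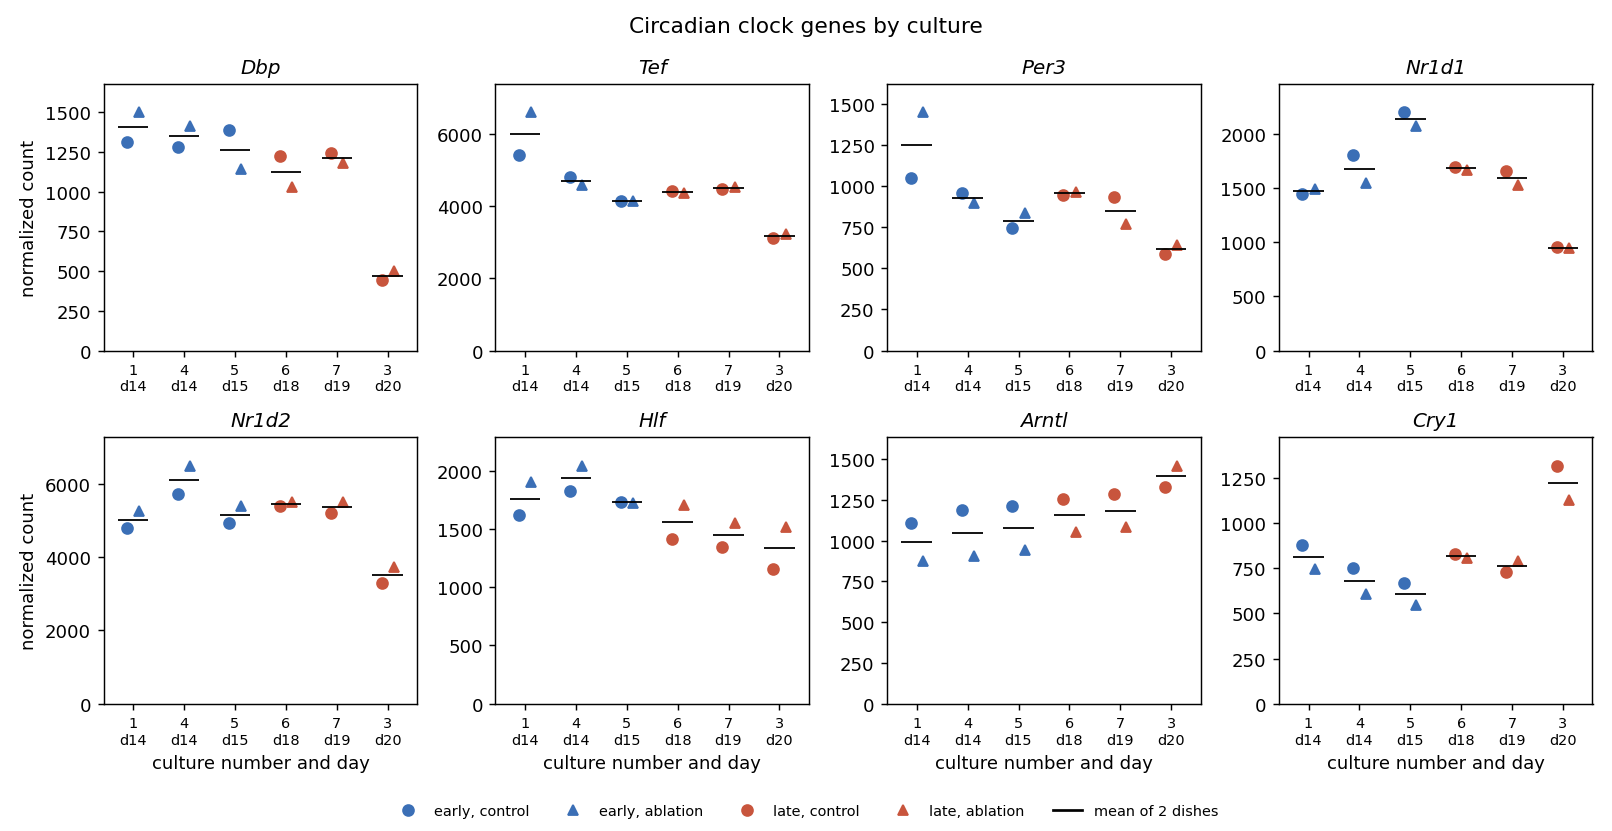
Normalized counts (vertical axes, from 0) of 8 circadian clock genes in each dish, by culture number and day (horizontal axes). Circles are control and triangles ablation dishes, early in blue and late in red, and the black line is the mean of the 2 dishes. Both dishes of culture 3 are lowest for Dbp, Tef, Per3, Nr1d1 and Nr1d2 and highest for Arntl and Cry1, while cultures 6 and 7 lie near the early cultures for these genes. For Hlf the means of all late cultures lie below those of the early cultures.

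Dbp, Tef and Hlf bind D-boxes, and Nr1d1 and Nr1d2 bind ROR elements. The letters TTANNTAA occurred in 2 of 16 clock promoters and in 3.19% of all, AGGTCA in 3 of 16 and in 10.3% of all, and the E-box CACGTG, bound by Arntl and Clock, in 5 of 16 and in 8.43% of all. Per3, with 2 copies of TTANNTAA, and Nr1d2, with AGGTCA, are shown because both genes fell in culture 3. They lie at chr4:151044771-151044870 and chr14:18239131-18239230, both on the minus strand, and the named letters are in capitals.
Per3: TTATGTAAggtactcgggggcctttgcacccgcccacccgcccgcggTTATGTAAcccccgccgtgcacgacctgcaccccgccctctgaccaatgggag
Nr1d2: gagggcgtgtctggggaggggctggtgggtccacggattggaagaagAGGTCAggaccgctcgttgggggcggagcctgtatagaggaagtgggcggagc

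Cultures 6 and 7 (d18 and d19) against culture 4 (d14) gave another late against early contrast, within library set 2 and with no sample shared with cultures 3 and 1, although the passage differed as well. Here 43 genes passed (0.312%), 28 higher (0.203%) and 15 lower (0.109%). Without the ablation dish of culture 4, limma called 0 genes, although the unadjusted p-value was under 0.05 for 769, and the other dishes left out in turn gave 3 to 92. Of the 2911 genes that differed between cultures 3 and 1, 51.9% had the same sign in this contrast, near the 49.3% over all tested genes. The share was 46.1% for those higher and 59.0% for those lower on d20. Calls in both contrasts numbered 17, or 0.584% of the first and 39.5% of the second. Over all tested genes, 21.1% were called in the first and 0.312% in the second. Of the 17, 15 had the same sign. Galnt6, Arntl2, Enpp1 and Ces1a were among these, but they had been picked by their late against early values in the same dishes. Their shared sign followed from that choice. Olfm4, which encodes a secreted glycoprotein of progenitor cells, rose from 24064 counts in culture 4 to 33578 and 33436 in cultures 6 and 7 (0.47, adjusted p = 0.0385), and Ltf, which encodes the iron-binding defense protein lactoferrin, from 32168 to 40512 and 38557 (0.30, adjusted p = 0.0499). Both also rose from culture 1 to culture 3, Olfm4 by 0.36 (adjusted p = 0.0184) and Ltf by 0.65 (adjusted p = 0.000152). Their lowest levels, 13317 and 16901 counts, were those of culture 1, and early cultures 4 and 5 exceeded late culture 3 for both genes.

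**Figure D5:**
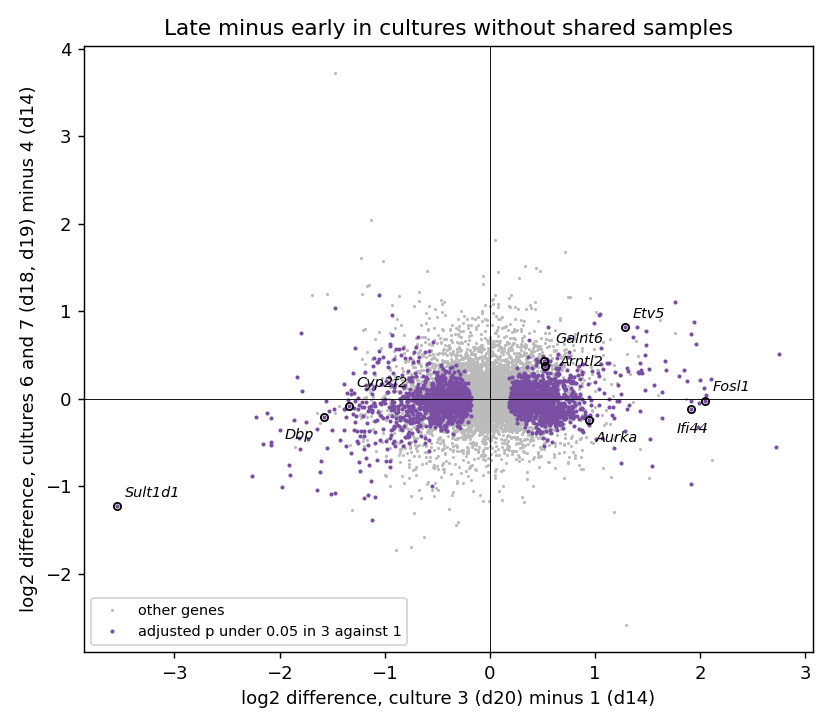
Log2 difference of culture 3 (d20) minus culture 1 (d14) on the horizontal axis and of cultures 6 and 7 (d18, d19) minus culture 4 (d14) on the vertical axis, for 13792 tested genes. Purple points passed the threshold in the first contrast, and 51.9% of them have the same sign in both. Galnt6, Arntl2, Etv5 and Sult1d1, picked by their late against early values in these same dishes, differ in one direction. Aurka, Ifi44 and Fosl1 are at -0.24, -0.12 and -0.02 in the second contrast.

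A test of the difference between the contrasts called 1538 genes (11.2%), 907 with the higher value in culture 3 minus 1 (6.58%) and 631 with the lower (4.58%). All 26 mitosis genes and 20 of 29 S phase genes were among the former, and 5 clock genes were among the latter. For Aurka the contrasts differed by 1.18 (adjusted p = 0.000602), for Dbp by -1.36 (adjusted p = 0.000744) and for Ifi44 by 2.04 (adjusted p = 0.00159). These genes had been picked by their culture 3 against 1 values in the same dishes. Those values enter this test, so the differences follow in part from that choice. With limma's plain empirical Bayes step 26 genes remained past the threshold in place of 1538, and 1726 in place of 2911 for culture 3 against 1. For Galnt6 and Arntl2, which had been picked by the late against early test of these same dishes, the contrasts differed by 0.08 (adjusted p = 0.635) and 0.16 (adjusted p = 0.307).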

How the data were processed

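RNA of 12 dishes of mouse airway organoids was sequenced by the authors from poly(A)-selected, stranded libraries with paired reads of 75 bases. Reads were aligned and counted per gene with the nf-core RNA-seq pipeline on GRCm38.p6 with GENCODE genes. The deposited signal values are read counts divided by a DESeq2 size factor for each library, as given by the authors. The same deposited table holds the authors' own ablation against control comparison as log2 fold changes, score columns (standard error and Wald statistic) and p-values, none of which was used.

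Dishes were grouped by the culture day, number and treatment in the labels. The members and gene lists were chosen with earlier results of these data known. Values were compared as log2(normalized count + 1) with limma 3.58.1 in R 4.3.3 (trend and robust settings, statmod 1.5.0), with treatment and library set as covariates and the culture number as a random block (consensus correlation 0.405). Tests are two-sided, with Benjamini-Hochberg adjusted p-values. Culture contrasts used number and treatment as factors. The numbers pair the dishes: the labels give the dishes of a number the same passage and day, and their deviations from the group means correlated at 0.186 to 0.616. In each library 100% of the lower values above 0 came out as whole reads, within 0.05 reads, when divided by its step. Higher values did not enter this share. The check that recovers reads from such steps was passed by 9 libraries. On these, edgeR 4.0.16 was run as an alternative and called 0 late against early genes and 1540 genes for culture 3 against 1. The scripts were tested on simulated data. P-values for culture contrasts measure only the spread between dishes.

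Named genes were the 15 largest changes each way among calls, up to 4 called members of each list with its first 2 tested members, and 6 lineage genes. Others named in the text were chosen after their values were seen. Promoters came from RefSeq (GRCm38.p6).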

Additional observations from a re-analysis of the deposited data

Results flagged for a closer look

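Single dishes stood apart from the other 5 of their group for 3 genes, all in culture 1 of the early group. Ces1a was at 143 normalized counts in the control dish of culture 1, against 191 to 211 in the other early dishes. The nucleoside transporter gene Slc29a1 was at 679 in the ablation dish of culture 1, against 814 to 884. Glul, which encodes glutamine synthetase, was at 17646 in that ablation dish, against 7862 to 11219. Over 110 groups examined for 55 genes, chance alone gives about 1 in 20.

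The change from culture 1 to culture 3 differed from that between culture 4 and cultures 6 and 7 for 1538 genes by limma (11.2% of all tested). Among them were 31 of the 55 genes examined. Many of these 55 had been chosen by their culture 3 against 1 values, which enter this test. A share above that of all genes followed from that choice. The values that follow are the log2 difference of the first contrast minus the second. Cell division genes had Aurka 1.18, Top2a 1.00, Cdc20 0.94, Cdk1 0.94, Mcm3 0.76, Mcm10 0.99, Uhrf1 0.90 and Pola1 0.75. Interferon genes had Ifi44 2.04, Isg15 1.13, Bst2 1.46 and Irf7 1.35. Clock genes had Dbp -1.36, Tef -0.83, Per3 -0.96, Nr1d1 -0.60 and Nr1d2 -0.35. Secretory, basal and detoxification genes had Cyp2f2 -1.26, Cbr2 -0.95, Gstm1 -0.99, Dapl1 -1.48 and Sox2 -0.35. Genes of amino acid supply and sterol synthesis had Cth 0.65, Chac1 0.73, Hsd17b7 0.69 and Idi1 0.41. The remaining values were Wnt4 -0.35, Sult1d1 -2.32, Slco4c1 -0.96, Slc29a1 0.78 and Ier3 0.78.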

How the results depend on the processing

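Late against early, 2 genes passed. That count was 26 with no filter on low values, 24 with no replicate block, 7 with passage added, 1 with the mean of the dishes of each culture (Igfbp5), 1 with culture day as a number (Arntl2), 1 in library set 2 alone (Igfbp5), and 0 in set 1 alone, in ablation dishes alone, with a minimum of 50 counts, with quantile normalization, with limma's plain empirical Bayes step and with edgeR on 9 libraries. At those counts of 0, between 699 and 1847 genes had an unadjusted p-value under 0.05. Leaving out a culture gave 0 to 13 genes. In controls alone the count of 0 became 44 with no filter, and for the response to ablation 41. The other settings of these comparisons kept their counts, and with no replicate block the response again gave 0 genes. For culture 3 against 1, 2911 genes became 1726 with the plain step and 1540 with edgeR on 9 libraries, and 615 to 2603 without a dish. For cultures 6 and 7 against 4, 43 genes became 208 with no filter and 0 with the plain step, and 0 to 92 without a dish. The difference of these contrasts fell from 1538 to 26 genes with the plain step. The cause was not tested. Among the values of named genes, 0 changed direction where the main or the alternative fit passed the threshold. Changes of sign where neither fit passed were not counted. Alternatives for the culture contrasts, the omission of dishes there and edgeR were chosen after seeing the data. With 3 cultures in each group, and passage changing with day, small differences by culture day were not detectable.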
